A study of Mus musculus with 72 samples.

Results

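The 37 genes described here mark the macrophages of the liver: the resident Kupffer cells, macrophages in general, the monocytes that enter from blood, and the state that macrophages take around lipid. They were found by gene symbol in the deposited table of minimum gene counts, which lists 27846 genes, and all 37 were among the 15066 genes tested. No measured value was used to choose a member, although earlier results of these data were known when the list was drawn up. By role they fall into 5 Kupffer cell genes, 12 genes of macrophages in general, the 3 chains of complement C1q, 4 genes of MHC class II antigen presentation, 6 monocyte and integrin genes, 4 genes of lipid-associated macrophages and 3 inflammatory signals.

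Kupffer cells live in the liver sinusoids, where they clear bacteria, dying cells and old red cells from the blood, and they largely renew themselves in place. When Kupffer cells are lost or the liver takes up too much fat, monocytes that carry Ccr2 enter and become macrophages, some of which take on a lipid-associated state marked by Trem2, Gpnmb, Cd9 and Lgals3. MHC class II molecules present antigen on macrophages, dendritic cells and B cells alike, so these genes belong to no single cell type.

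Polyadenylated RNA of whole livers was sequenced in 72 wild type C57bl6 mice of both sexes, age-matched within 8 to 16 weeks and housed on 12 h of light and 12 h of dark. Misaligned mice went through chronic circadian misalignment, whose schedule is not given in the sources used here, and control mice did not. Both were moved from chow to a diet with 42% of calories from fat when the paradigm began. At each of 6 clock times (0, 4, 8, 12, 16 and 20 h) there were livers of misaligned females, control females, misaligned males and control males, with 3 biological replicates in each of the 24 groups and so 18 livers for each sex and treatment. The animals were perfused through the heart to remove blood and pieces of whole liver were taken, so every level below is an average over all liver cells. The comparisons ask how misalignment changed these genes and whether females and males differed.

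The libraries held 11551524 to 12529963 counted reads, totals more alike than sequencing usually gives, and how they were evened is not given in the sources used here. Levels are given as CPM, counts brought to a common library size with trimmed mean of M values (TMM) scaling. Replicates of a group correlated at 0.948 to 0.986 (Pearson r of log2 CPM across genes), and no 2 libraries were identical. Tnf had 0 counts in 2 livers and no other member had 0 counts in any liver. Of the other cells that whole liver holds, hepatocyte markers dominated. Neutrophil markers differed: Ly6g was at 0 in 64 of 72 livers and Camp in 38. The neutrophil markers Csf3r (median 5.09 CPM) and S100a9 (median 1.79 CPM) had counts in every liver.

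A single liver stood apart, replicate 1 of the control females at 16 h. It had the highest level of all 72 livers for 24 of the 37 genes. Cd74, the chaperone of MHC class II, measured 1761 CPM there, against 234 and 134 CPM in the other livers of its group. Marco measured 394.8 CPM there, against 16.9 and 5.57 CPM. The same liver also held the most RNA of other blood-borne cells in its group: B cell markers summed to 87.8 CPM, against 16.0 and 16.1 CPM, T and NK cell markers to 45.6 CPM, against 8.31 and 4.97 CPM, and blood markers to 954 CPM, against 196 and 161 CPM. Results that rest on this liver are given with and without it. At the other end, replicate 3 of the control males at 0 h was the lowest of all livers for 16 genes.

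The members lie on 16 chromosomes. Some members are neighbours, with positions in the GRCm38 build and GENCODE annotation: the C1q genes span 18.7 kb of chromosome 4 from 136880129 to 136898803, H2-Aa, H2-Ab1 and H2-Eb1 span 59.0 kb of chromosome 17 from 34257689 to 34316674, and the integrins Itgam and Itgax span 88.0 kb of chromosome 7 from 128062640 to 128150657. The C1q genes and the H2 genes each varied together between livers, as described further on. For 3 of these genes that carry a sequence marked below, the 250 bases before the start are shown (RefSeq, GRCm38.p6, 5′ to 3′ on the strand of the gene). H2-Aa is read from the minus strand and its window is chr17:34287824-34288073. H2-Eb1 is read from the plus strand and its window is chr17:34305617-34305866. C1qb is read from the minus strand and its window is chr4:136886201-136886450. Capitals mark CTGATTGG, the Y box sequence of MHC class II promoters, in H2-Aa and H2-Eb1, and GAGGAA, a core of the kind bound by ETS factors, in C1qb.
H2-Aa: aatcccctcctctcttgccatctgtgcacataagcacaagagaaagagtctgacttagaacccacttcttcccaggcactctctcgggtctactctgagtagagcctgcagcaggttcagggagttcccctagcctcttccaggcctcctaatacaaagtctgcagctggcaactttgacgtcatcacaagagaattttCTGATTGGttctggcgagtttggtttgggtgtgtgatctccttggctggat
H2-Eb1: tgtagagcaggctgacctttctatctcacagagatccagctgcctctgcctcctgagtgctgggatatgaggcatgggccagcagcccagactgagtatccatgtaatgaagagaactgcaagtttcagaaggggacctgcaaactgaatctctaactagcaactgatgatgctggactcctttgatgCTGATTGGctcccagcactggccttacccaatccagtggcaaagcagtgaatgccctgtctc
C1qb: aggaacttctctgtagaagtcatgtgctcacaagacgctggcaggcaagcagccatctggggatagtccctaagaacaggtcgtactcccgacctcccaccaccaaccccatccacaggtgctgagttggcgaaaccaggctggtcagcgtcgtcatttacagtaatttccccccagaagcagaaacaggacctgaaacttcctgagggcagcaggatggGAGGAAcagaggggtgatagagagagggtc

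CTGATTGG stands 51 bases before the start of H2-Aa and 62 before that of H2-Eb1, and GAGGAA 30 bases before that of C1qb. A window of 300 bases, 250 before the start and 50 after, was held for 28 of the 37 members. Counted on both strands, GAGGAA was present in 13 of these 28 (46.4%) and in 28.3% of 27025 promoters. GAGGAAGT, which contains GAGGAA and is the longer form bound by PU.1, was present in 3 of 28 (10.7%: Ctss, C1qc and Ly6c2) and in 3.28% of all promoters. CTGATTGG was present in 2 of 28 (7.14%: H2-Aa and H2-Eb1) and in 4.31% of all. H2-Ab1 was not among the members found with CTGATTGG, nor C1qa among those found with GAGGAA. The E box CACGTG, to which the clock activators bind, was in 0 of 28 windows and in 7.24% of all promoters. These counts describe letters in the windows and not binding.

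Per kilobase of exon, Cd74 and Lyz2, the lysozyme of myeloid cells, had the highest mean levels over all livers at 140.88 and 132.34 CPM per kb. Cd5l, a secreted protein of Kupffer cells, followed at 107.98 CPM per kb and Clec4f, a lectin receptor found in the mouse on Kupffer cells, stood at 63.6 CPM per kb. The lowest were Itgam at 0.277, Tnf at 0.343, Ly6c2 at 0.419 and Ccr2 at 0.637 CPM per kb. On this scale Cd5l, Clec4f, C1q and Cd74 were high, and most genes of monocytes were low. All 5 Kupffer cell markers were present in every liver.

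Female and male livers differed in both directions. In controls, 4 of the 5 Kupffer cell genes were higher in females than in males, and 3 of the 4 lipid-associated genes and 3 of the 6 monocyte and integrin genes were lower in females. In all, 14 of the 37 members passed an adjusted p of 0.05 (edgeR quasi-likelihood test with Benjamini-Hochberg adjustment over all tested genes), 6 higher and 8 lower in females. Over all tested genes 32.9% passed, 16% higher and 17% lower, so the share of members called was near that of all genes. The members' median log2 difference was -0.14, against 0.00648 for all genes. Because whole liver was measured, fewer cells of a type and less RNA per cell cannot be told apart.

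Among the Kupffer cell genes, Clec4f ranged over 126 to 372 CPM (median 198) in control females and 63.2 to 188 CPM (median 111) in control males. The ranges overlapped, but the female median lay above the highest male liver. The log2 difference, female minus male, was 0.87 ± 0.12 (SE; adjusted p = 4.31e-08), and in misaligned livers it was 0.64 ± 0.12 (adjusted p = 1.35e-05) with 116 to 308 CPM (median 196) in females and 77.7 to 170.5 CPM (median 119) in males. Clec4f was higher in females at 6 of 6 clock times under both treatments.

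Timd4, the receptor with which Kupffer cells bind phosphatidylserine on dying cells, ranged over 6.61 to 47.7 CPM (median 13.7) in control females and 1.08 to 8.96 CPM (median 5.39) in control males. It differed by 1.61 ± 0.23 on the log2 scale in controls (adjusted p = 2.2e-07) and by 1.08 ± 0.23 in misaligned livers (adjusted p = 0.000153), where females held 4.94 to 27.1 CPM (median 13.2) and males 0.668 to 11.5 CPM (median 6.73). In both treatments the lowest females lay among the males, and the female median lay above the highest male. Vsig4, a complement receptor that captures bacteria from blood, ranged over 28.5 to 169.9 CPM (median 69.8) in control females and 23.2 to 57.7 CPM (median 41.1) in control males, a log2 difference of 0.92 ± 0.14 (adjusted p = 3.93e-07). In misaligned livers it measured 39.7 to 106.5 CPM (median 63.5) in females and 19.7 to 71.7 CPM (median 37.2) in males, a difference of 0.75 ± 0.14 (adjusted p = 1.51e-05). Both genes were higher in females at 6 of 6 clock times under both treatments.

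Marco, a scavenger receptor for bacteria and particles, was the most scattered Kupffer cell gene. It ranged over 1.69 to 394.8 CPM (median 10.2) in control females and 0.631 to 15.9 CPM (median 3.24) in control males, a log2 difference of 2.15 ± 0.43 (adjusted p = 9.22e-05) that was 1.55 without the liver that stood apart (adjusted p = 0.00109). In misaligned livers the ranges were 0.480 to 43.4 CPM (median 11.4) in females and 0.251 to 37.5 CPM (median 6.33) in males, and the difference of 0.71 ± 0.42 did not pass (adjusted p = 0.187). Cd5l, the fifth gene of the group, had similar medians of 212 CPM in control females and 203 CPM in control males and did not pass the test (log2 difference 0.19, adjusted p = 0.376).

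**Figure D1:**
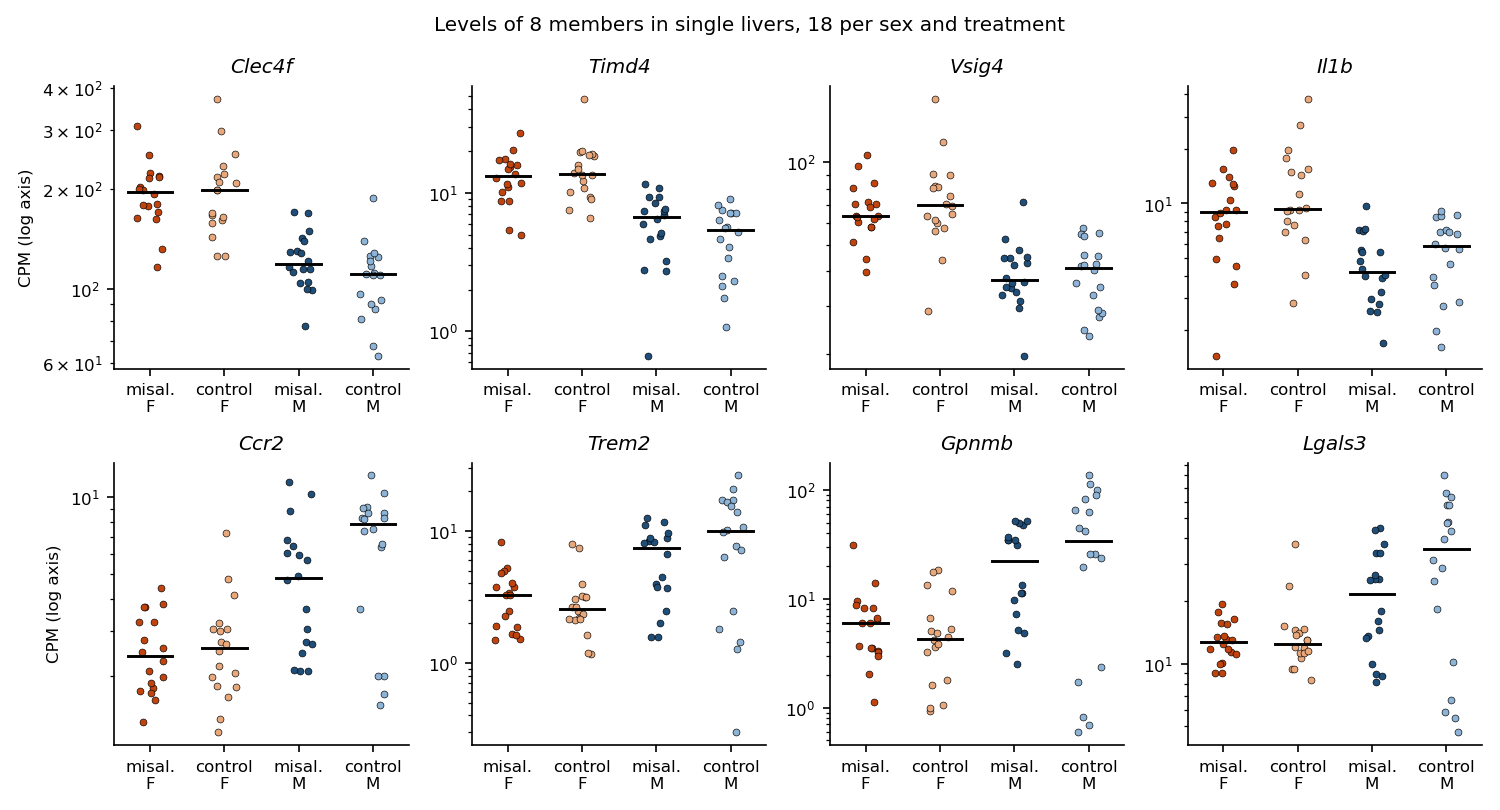
Levels of 8 members in single livers (CPM after TMM scaling, log axis) in misaligned females, control females, misaligned males and control males, 18 livers each, with bars at the medians. Clec4f, Timd4, Vsig4 and Il1b lie higher in females, and Ccr2, Trem2, Gpnmb and Lgals3 lie lower in females, with overlap between the sexes for every gene.

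The lipid-associated genes ran the other way. Gpnmb, a transmembrane glycoprotein of macrophages loaded with lipid, ranged over 0.934 to 18.5 CPM (median 4.31) in control females and 0.594 to 136 CPM (median 33.6) in control males. The male livers spread over the whole female range and far above it. The log2 difference was -2.89 ± 0.51 in controls (adjusted p = 1.32e-05) and -1.90 ± 0.51 in misaligned livers (adjusted p = 0.00278), where females held 1.12 to 31.3 CPM (median 5.97) and males 2.52 to 51.9 CPM (median 22.1). The control value was -1.95 without replicate 1 of the control males at 16 h (adjusted p = 0.026). Trem2, a receptor that senses lipids, ranged over 1.17 to 7.92 CPM (median 2.56) in control females and 0.299 to 26.3 CPM (median 9.91) in control males, and differed by -1.76 ± 0.34 in controls (adjusted p = 4.01e-05) and -0.97 ± 0.35 in misaligned livers (adjusted p = 0.0233). The galectin gene Lgals3 ranged over 8.31 to 37.4 CPM (median 12.5) in control females and 4.69 to 80.1 CPM (median 35.5) in control males, and differed by -1.26 ± 0.28 in controls (adjusted p = 0.000284) and -0.77 ± 0.28 in misaligned livers (adjusted p = 0.0256). For each of these 3 genes the control male median lay above the female median, and some control males lay below every control female. Cd9, the tetraspanin of the group, did not pass in controls (log2 difference -0.36, adjusted p = 0.0771) or in misaligned livers (-0.14, adjusted p = 0.518).

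Among the monocyte genes, Ccr2, the chemokine receptor with which monocytes leave the bone marrow, ranged over 1.20 to 7.26 CPM (median 2.57) in control females and 1.53 to 12.2 CPM (median 7.87) in control males. It differed by -1.22 ± 0.23 in controls (adjusted p = 3.86e-05) and by -0.95 ± 0.24 in misaligned livers (adjusted p = 0.00154). Cx3cr1, the fractalkine receptor, differed by -1.03 ± 0.30 in controls (adjusted p = 0.00676), with medians of 1.64 CPM in females and 4.69 CPM in males, and by -1.10 ± 0.33 in misaligned livers (adjusted p = 0.00699), with medians of 1.48 CPM in females and 3.18 CPM in males. Both receptors were lower in females at 5 of 6 clock times under each treatment. The chemokine Ccl6 differed by -0.66 ± 0.22 in controls (adjusted p = 0.0149), and Ccl2, the ligand of Ccr2, by -0.78 ± 0.29 (adjusted p = 0.0354). Ly6c2, Itgam and Itgax did not pass in either treatment.

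Il1b, Csf1r and Clec7a also passed in controls. Il1b, which encodes an inflammatory interleukin, was higher in females by 1.12 ± 0.26 on the log2 scale (adjusted p = 0.000508), with 2.84 to 37.8 CPM (median 9.34) in females and 1.62 to 9.11 CPM (median 5.81) in males. It was also higher in misaligned females by 0.99 ± 0.26 (adjusted p = 0.00212) and at 6 of 6 clock times under both treatments. Csf1r, the receptor of the growth factor that macrophages live on, was higher in females by 0.47 ± 0.15 (adjusted p = 0.0133). Clec7a, a receptor for fungal glucans, was lower in females, at -0.84 ± 0.26 (adjusted p = 0.0107). In misaligned livers Mpeg1, which encodes a pore-forming protein of phagocytes, was lower in females, at -0.36 ± 0.13 (adjusted p = 0.0219), with medians of 122 CPM in females and 156 CPM in males.

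Misaligned livers therefore gave 10 called members, 4 higher and 6 lower in females, where 37.7% of all tested genes passed, 17.8% higher and 19.9% lower. The members' median log2 difference was -0.06, against 0.00723 for all genes. The comparison in misaligned livers shares no liver with that in controls, and 9 genes passed in both, which is 90% of the 10 and 64.3% of the 14. Of all tested genes 3780 passed in both in the same direction, 66.6% of those called in misaligned livers and 76.1% of those called in controls, so such overlap was common among all genes. Those 9 were Clec4f, Timd4, Vsig4, Il1b, Ccr2, Cx3cr1, Trem2, Gpnmb and Lgals3. Of the 12 genes of macrophages in general, 2 passed in controls and 1 in misaligned livers. None of the 3 C1q genes, which encode the recognition protein of complement, passed in controls (log2 differences 0.06 to 0.33, adjusted p 0.0832 to 0.818), and none of the 4 MHC class II genes did (-0.39 to -0.16, adjusted p 0.233 to 0.622).

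The liver that stood apart bears on this comparison. Without it, 19 members passed in controls, where 31.6% of all genes passed, and the members' median was -0.27. Csf1r was lost (adjusted p = 0.0614), and Mpeg1, Itgax and the 4 MHC class II genes were gained, each lower in females. The log2 difference was then -0.72 for H2-Eb1 (adjusted p = 0.00922), -0.69 for H2-Aa (0.0104), -0.58 for H2-Ab1 (0.0318) and -0.48 for Cd74 (0.0482). Without replicate 1 of the control males at 16 h, Clec7a (adjusted p = 0.0962), Cx3cr1 (0.0785) and Ccl6 (0.0767) missed the threshold, and Ccl2 was lost without any 1 of 12 libraries (adjusted p up to 0.31). In misaligned livers Mpeg1 was lost without replicate 3 of the males at 0 h (0.0661), Trem2 without replicate 2 of the males at 20 h (0.0511) and Lgals3 without 1 of 2 male libraries (up to 0.0609).

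**Figure D2:**
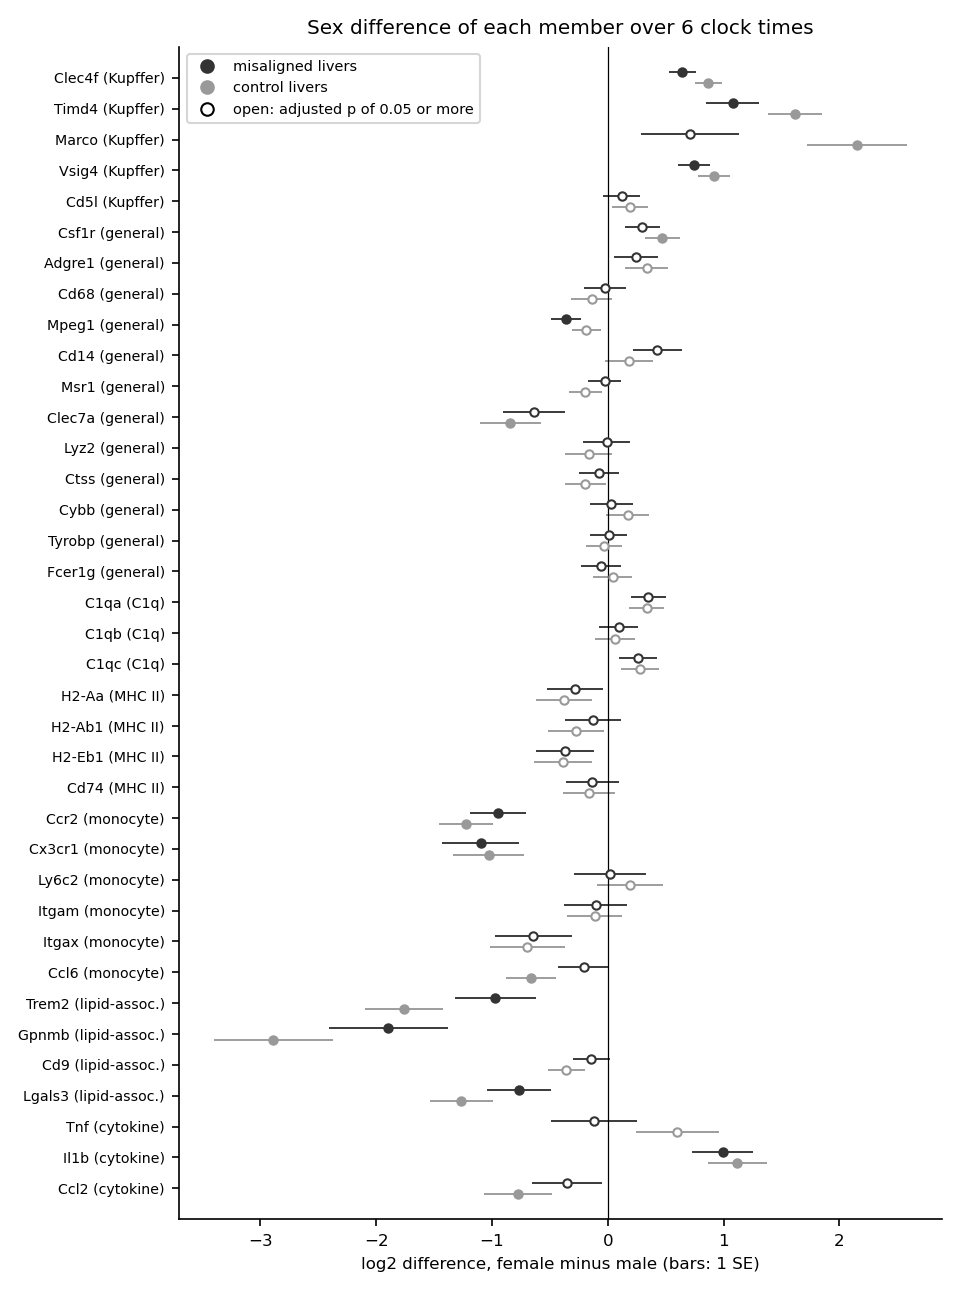
Log2 difference, female minus male, of each of the 37 members, averaged over 6 clock times, in misaligned livers (dark) and control livers (grey), with bars of 1 SE and filled points for an adjusted p under 0.05. Clec4f, Timd4, Marco, Vsig4 and Il1b lie to the right in controls, and Gpnmb, at -2.89, lies furthest to the left.

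Markers of other liver cells moved with sex as well. The median sum of 8 stellate cell markers was 485 CPM in misaligned females and 587 CPM in misaligned males, and 441 CPM in control females and 742 CPM in control males. The sum of 9 sinusoidal endothelial markers was 483 CPM in misaligned females and 356 CPM in misaligned males, and 469 CPM in control females and 374 CPM in control males. In controls, 4 of the 8 stellate genes were lower in females, with Col1a1 at -1.80 and Col3a1 at -1.39, and 5 of the 9 sinusoidal genes were higher, with Stab2 at 0.40. In misaligned livers 2 stellate genes were lower and 1 was higher, and 7 of the 9 sinusoidal genes were higher. Over all tested genes 16% were higher and 17% lower in control females, and 17.8% higher and 19.9% lower in misaligned females. The part of these cells in the differences of the macrophage genes was not tested.

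For other genes on which macrophages depend, the share of all tested genes that passed, 32.9% in controls and 37.7% in misaligned livers, is the measure. Here 3 of 11 transcription factors were higher in control females than in control males: Spic, known in red pulp macrophages that recycle iron, by 0.81, Nr1h3, a sterol-sensing receptor of Kupffer cells, by 0.23 and Maf by 0.19. Of 7 growth and niche signals 2 were higher, Csf1 by 0.33 and Notch1 by 0.25. Of 19 further genes of Kupffer cells and macrophages 7 passed, 5 higher and 2 lower, among them the haemoglobin scavenger receptor Cd163 at 1.41, the folate receptor Folr2 at 0.88 and Mertk, which takes up dying cells, at 0.38. Of 6 further MHC class II genes 0 passed. In misaligned livers 2 of 11 factors, 2 of 7 signals, 8 of 19 further macrophage genes (7 higher and 1 lower) and 1 of 6 further MHC class II genes passed.

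Averaged over the 6 clock times, misalignment changed 0 of the 37 members in either sex. In females 0 passed and 2 had an unadjusted p under 0.05 (0.00664% of all genes passed, and 6.68% at the unadjusted threshold). In males 0 passed and 3 had an unadjusted p under 0.05 (0% and 6.19%). limma-voom and DESeq2 each called 0 in both sexes. Most differences were negative, with 32 of 37 members below 0 in females and 32 of 37 in males, and medians of -0.16 in females and -0.24 in males, against -0.00105 and 0.00637 for all genes. Without the liver that stood apart the female median was 0.01, so most members then lay above 0 in females. The male median was not alike over the day. At single clock times, given further on, it lay on both sides of 0 and was by far the lowest at 20 h. Members vary together between livers, as described further on, so these counts are not counts of independent genes. The median SE of a member's difference was 0.216.

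The members with the smallest p in females were Itgam, an integrin chain of myeloid cells, Marco, the cytokine Tnf and Mpeg1. Itgam differed by -0.58 ± 0.26 on the log2 scale in females (adjusted p = 0.718), negative at 6 of 6 clock times, and by -0.59 ± 0.25 in males (adjusted p = 0.777), negative at 5 of 6. Its range was 0.511 to 1.73 CPM (median 1.07) in misaligned females and 0.658 to 4.26 CPM (median 1.35) in control females. Marco differed by -0.83 ± 0.40 in females (adjusted p = 0.743), Tnf by -0.67 ± 0.35 (0.766) and Mpeg1 by -0.24 ± 0.13 (0.775). Without the liver that stood apart these female values were -0.45 for Itgam, -0.23 for Marco, -0.36 for Tnf and -0.13 for Mpeg1 (adjusted p 0.894 to 0.976). In males Trem2 differed by -0.70 ± 0.31 (adjusted p = 0.79), Lgals3 by -0.61 ± 0.27 (0.792) and Gpnmb by -0.92 ± 0.46 (0.799). None of these differences passed once p-values were adjusted over all tested genes. The female effect minus the male effect passed for 0 members (1 at an unadjusted p under 0.05; 0% and 5.7% of all genes), with the smallest p for Marco at -1.44 ± 0.61 (adjusted p = 0.836), which was -0.84 without that liver (adjusted p = 0.875). The members' median for this difference was 0.03, and 0.21 without that liver. Of the 5 Kupffer cell genes, 0 were above 0 in females (2 without that liver) and 4 in males.

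At single clock times, 3 livers against 3, the calls among the members lay at 20 h in males. There 14 of 37 passed, all lower in misaligned males, where 14.4% of all tested genes passed and 6.07% passed as lower. The 14 were all 4 lipid-associated genes, 6 of the 12 genes of macrophages in general and 4 of the 6 monocyte and integrin genes, while 0 of the Kupffer cell, C1q, MHC class II and inflammatory genes passed. At an unadjusted p under 0.05 there were 24 members in all (30.5% of all genes). The members' median log2 difference was -1.23, against -0.009 for all genes. The levels of the 3 misaligned males lay wholly below those of the 3 control males for 29 of 37 members (16.3% of all genes) and wholly above for Timd4 and Marco (16.9%).

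Gpnmb measured 4.83, 11.3 and 7.27 CPM in the 3 misaligned males at 20 h, against 82.8, 136 and 65.8 CPM in the 3 control males. The log2 difference was -3.61 ± 1.25 (adjusted p = 0.0441), with means of 7.80 ± 3.27 CPM in misaligned males and 94.77 ± 36.5 CPM in control males (SD, n = 3 each; edgeR model over all genes). Trem2 measured 1.58, 4.48 and 2.49 CPM in misaligned males, against 13.9, 16.5 and 15.5 CPM in control males (-2.43 ± 0.82, adjusted p = 0.038). Every misaligned liver lay below every control liver for both genes. Lgals3 measured 13.2, 16.0 and 8.71 CPM in misaligned males, against 39.5, 63.2 and 57.4 CPM in control males (-2.07 ± 0.68, adjusted p = 0.0347). Cd9 measured 14.2, 23.8 and 14.5 CPM in misaligned males, against 38.4, 59.7 and 33.9 CPM in control males (-1.33 ± 0.40, adjusted p = 0.0208). These 2 genes did not overlap between the groups either.

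Among the monocyte genes, Ccr2 measured 2.66, 3.05 and 2.11 CPM in misaligned males at 20 h, against 8.24, 12.2 and 7.34 CPM in control males (-1.82 ± 0.56, adjusted p = 0.0248). Cx3cr1 measured 1.17, 3.23 and 1.24 CPM, against 9.22, 10.9 and 5.22 CPM in control males (-2.17 ± 0.72, adjusted p = 0.0354). The groups did not overlap for either receptor. Itgax, an integrin chain of dendritic cells and of some macrophages, measured 2.66, 8.07 and 3.16 CPM in misaligned males, against 26.1, 31.0 and 17.4 CPM in control males (-2.42 ± 0.81, adjusted p = 0.0369). Ccl6 measured 10.7, 18.7 and 10.4 CPM, against 34.1, 55.4 and 37.9 CPM in control males (-1.68 ± 0.54, adjusted p = 0.0305). Again the groups did not overlap.

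Of the genes of macrophages in general, Cd14, the co-receptor for bacterial endotoxin, measured 6.66, 3.94 and 3.73 CPM in misaligned males at 20 h, against 12.5, 25.8 and 18.8 CPM in control males (-1.98 ± 0.52, adjusted p = 0.0103). Cybb, the catalytic subunit of the phagocyte oxidase, measured 26.4, 18.9 and 12.9 CPM, against 62.6, 85.9 and 45.0 CPM in control males (-1.73 ± 0.46, adjusted p = 0.0118). Clec7a measured 9.32, 15.2 and 8.33 CPM, against 55.5, 61.8 and 41.5 CPM in control males (-2.27 ± 0.67, adjusted p = 0.0195). In all 3 the groups stood apart. The scavenger receptor Msr1 differed by -1.24 ± 0.35 (adjusted p = 0.0149), Mpeg1 by -1.11 ± 0.32 (0.0175) and the protease gene Ctss by -1.23 ± 0.43 (0.0478).

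The 5 Kupffer cell genes did not pass at 20 h in males and differed in sign. Clec4f measured 128.5, 149 and 105.2 CPM in misaligned males, against 121.8, 110.2 and 96.4 CPM in control males, overlapping (0.22 on the log2 scale). Timd4 measured 11.5, 7.44 and 5.93 CPM in misaligned males, against 3.40, 4.08 and 2.53 CPM in control males (1.31 ± 0.61, adjusted p = 0.134), and Marco 37.5, 6.45 and 9.19 CPM, against 1.74, 6.34 and 1.88 CPM (2.41 ± 1.06, adjusted p = 0.116). For both, each misaligned liver lay above each control liver. Cd5l measured 218, 193 and 106 CPM in misaligned males, against 307, 323 and 232 CPM in control males (-0.74, adjusted p = 0.193), and Vsig4 37.9, 44.6 and 29.4 CPM, against 53.8, 55.0 and 40.3 CPM (-0.42, adjusted p = 0.418). Each misaligned liver lay below each control liver for Cd5l, and the groups overlapped for Vsig4. The C1q genes differed by -0.53 to -0.28, and the MHC class II genes by -1.24 to -1.10 (adjusted p 0.149 to 0.18).

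**Figure D3:**
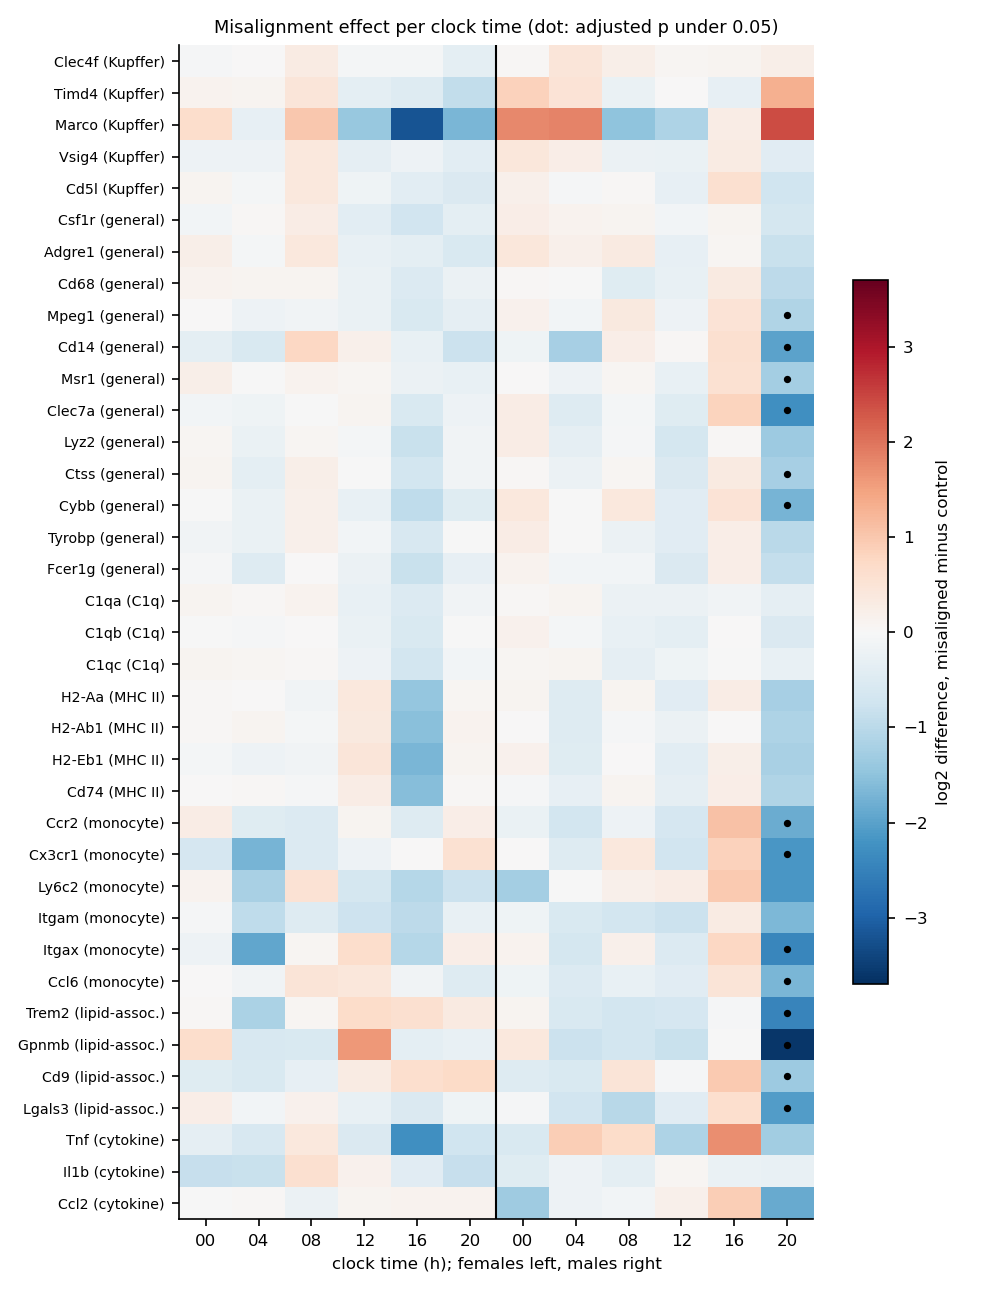
Log2 difference, misaligned minus control, of each member at each of 6 clock times in females (left) and males (right), with a dot where the adjusted p was under 0.05. The 14 dots all lie in the column of males at 20 h.

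Control males at 20 h had the highest mean of the 12 male groups for 34 of 37 members, and misaligned males at 20 h had the lowest for 24. The share over all tested genes was not computed. Members vary together between livers, so these are not counts of independent genes. Other cell markers differed at 20 h as well. Stellate cell markers summed to 353, 515 and 415 CPM in misaligned males, against 961, 1124 and 654 CPM in control males. Cholangiocyte markers summed to 66.6, 159.85 and 84.2 CPM, against 249, 374 and 274 CPM. Spp1, which macrophages also express, was the main gene of the cholangiocyte list. Over all livers its median was 118.4 CPM, against 0.392 to 2.87 CPM for the other genes of that list. Neutrophil markers summed to 7.16, 7.17 and 5.74 CPM, against 15.3, 25.3 and 14.4 CPM in control males, and dendritic cell markers to 11.4, 12.4 and 13.3 CPM, against 20.1, 25.8 and 15.4 CPM. For these 4 lists every misaligned male lay below every control male. Blood markers ran the other way, at 391, 304 and 514 CPM in misaligned males and 192, 196 and 205 CPM in control males. The summed Kupffer cell genes overlapped, at 433, 401 and 256 CPM in misaligned males and 488, 499 and 373 CPM in control males. The part of the other cells in the result was not tested. Over all tested genes 14.4% passed at 20 h in males, 6.07% as lower in misaligned males. Of the further lists, 1 of 11 transcription factors was lower (Zeb2 at -0.98, adjusted p = 0.0117), 0 of 7 growth and niche signals passed, 4 of 19 further macrophage genes were lower (with Lpl, which splits triglycerides, at -2.49, adjusted p = 0.00904, and Axl at -1.10, adjusted p = 0.0289), and 0 of 6 further MHC class II genes passed.

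The calls at 20 h in males rested on few livers. With replicate 2 of the control males or replicate 3 of the misaligned males left out, 0 members passed. Without replicate 1 of the misaligned males 4 passed, without replicate 2 of the misaligned males 8, without replicate 1 of the control males 9 and without replicate 3 of the control males 12. limma-voom called 12.

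At the other 11 combinations of sex and clock time 0 members passed. Of all genes, 0.00664%, 0.00664%, 0%, 0%, 0.0664% and 0% passed in females from 0 to 20 h, and 0.378%, 0.00664%, 0.392%, 0% and 1.08% in males from 0 to 16 h. An unadjusted p under 0.05 was reached in females by 0, 1, 0, 0, 7 and 0 members from 0 to 20 h, against 4.41%, 7.05%, 4.17%, 4.33%, 6.26% and 3.72% of all genes. In males it was reached by 1, 1, 0, 0 and 1 members from 0 to 16 h, against 7.81%, 5.16%, 12%, 3.78% and 14.9% of all genes. The 7 members in females at 16 h were thus the single count above the share of all genes, and without the liver that stood apart 0 of the 37 had an unadjusted p under 0.05 there. The members' median in females ran 0.02, -0.19, 0.11, -0.09, -0.56 and -0.23 from 0 to 20 h, and in males 0.07, -0.19, -0.04, -0.37, 0.30 and -1.23. The female value at 16 h was 0.37 without the liver that stood apart, again with 0 members called. In females at 20 h, 9 members lay wholly below the controls in the misaligned livers (5.42% of all genes), among them Timd4, Marco, Vsig4 and Cd5l, and Cd9 lay wholly above (5.47%), although none passed the test.

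Cd9 was the one member whose response to misalignment depended on clock time in males (adjusted p = 0.0349; 1 of 37 members, 9.26% of all genes; 7 members at an unadjusted p under 0.05, 26.1% of all genes). Its male differences, misaligned minus control, were -0.48, -0.57, 0.47, -0.04, 0.98 and -1.33 on the log2 scale from 0 to 20 h. In females they were -0.45, -0.58, -0.29, 0.32, 0.61 and 0.72, and 0 members passed (0.0332% of all genes; 1 member, Marco, at an unadjusted p under 0.05, 5.06% of all genes). The signs in the 2 sexes matched at 0, 4 and 16 h and were opposite at 8, 12 and 20 h. Of these single differences only the male one at 20 h passed the test, so the other signs are not established. At 20 h, the female effect minus the male effect passed for Cd9 alone of the 37 members, at 2.05 ± 0.56 (adjusted p = 0.0493; 1.16% of all genes; 8 members unadjusted, 19.2%), a test added after the data were seen and lost without 10 of the 12 livers of that clock time. The male call was lost without any 1 of 8 libraries (adjusted p up to 0.11), and without replicate 1 of the control males at 16 h it was 1 of 11 members called.

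**Figure D4:**
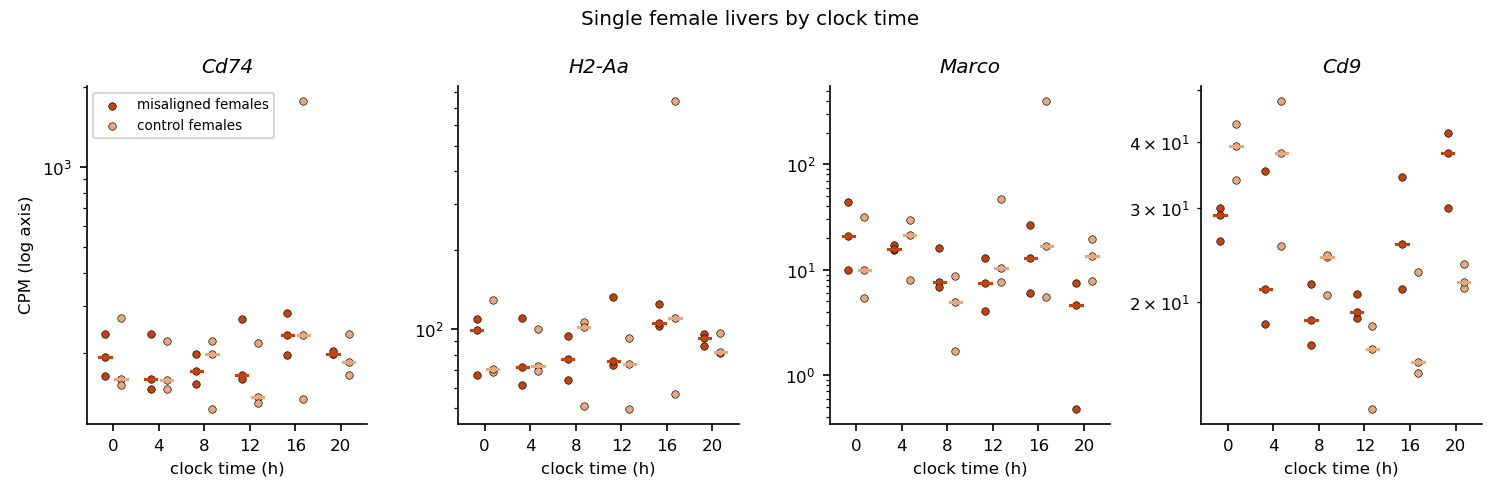
Cd74, H2-Aa, Marco and Cd9 in single female livers (CPM) by clock time, misaligned left of control at each time, 3 livers each, with bars at the medians. One control liver at 16 h lies far above the rest for Cd74, H2-Aa and Marco, and control Cd9 is highest at 0 and 4 h.

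A rhythm of 24 h was sought with a cosine fitted to each sex and treatment. In misaligned females 0 members passed (7.69% of all genes; 1 member at an unadjusted p under 0.05, 20.9% of all genes). In control females 5 passed (12% of all genes; 7 unadjusted, 25.8%). In control females the largest fitted amplitude among these was that of Marco, at 1.44 ± 0.51 on the log2 scale with a peak at 16.8 h (adjusted p = 0.0142), followed by H2-Ab1 at 0.82 ± 0.31 (0.0272), H2-Eb1 at 0.81 ± 0.32 (0.0368) and Cd74 at 0.79 ± 0.29 (0.0235), each with a peak at 16.4 h. All 4 calls rested on the 1 liver at 16 h that stood apart, and without it their adjusted p lay between 0.928 and 0.993. Cd9 was the exception: its fitted amplitude was 0.69 ± 0.20 and its peak 1.87 ± 1.11 h (adjusted p = 0.00618), and an adjusted p of 0.0051 without that liver, when 10.8% of all genes passed.

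The group means of Cd9 in misaligned females were 28.4 ± 2.1, 24.9 ± 9.1, 18.9 ± 2.5, 19.5 ± 1.1, 27.1 ± 6.7 and 36.5 ± 5.9 CPM from 0 to 20 h (SD, n = 3 each). In control females they were 38.8 ± 4.7, 37.1 ± 11.1, 23.2 ± 2.2, 15.6 ± 2.8, 17.7 ± 4.5 and 22.2 ± 1.2 CPM. Control levels were thus highest at 0 and 4 h and lowest at 12 h, and misaligned levels highest at 20 h. The fitted rhythm in misaligned females peaked at 21.1 h, its amplitude was 0.45 ± 0.20, and it did not pass (adjusted p = 0.168), nor did the change of rhythm between the treatments (adjusted p = 0.401).

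In males 0 members passed in misaligned livers (0.00664% of all genes; 0 at an unadjusted p under 0.05, 7.85% of all genes) and 0 in control livers (10.8% of all genes; 2 unadjusted, 23.8%), where Cd14 came closest (fitted amplitude 0.64 ± 0.26, peak 22.1 h, adjusted p = 0.103). The change of rhythm with misalignment passed for 0 members in females (0.192% of all genes; 2 unadjusted, 8.2%) and 0 in males (9.23%; 5 unadjusted, 24.1%), and the smallest adjusted p in males was 0.0997 for Cd9.

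Single livers of a group differed more in these genes than in most. The SD of log2 CPM within groups had a median of 0.685 over the members, against 0.296 over all tested genes, and lay above 0.296 for all 37 members. It was lowest for Clec4f at 0.36 and highest for Gpnmb at 1.74, with Marco at 1.33, Trem2 at 1.10 and Itgax at 1.06. The spread of Gpnmb was 0.82 in misaligned females and 1.41 in control females, and 1.58 in misaligned males and 2.65 in control males. The mean of the 4 lipid-associated genes had SDs of 0.39 and 0.65 in misaligned and control females, and 0.98 and 1.55 in misaligned and control males. Control males were thus the most variable of the 4 sets for these genes.

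In control males at 16 h, Gpnmb measured 112.3, 0.812 and 0.698 CPM and Trem2 26.3, 1.80 and 0.299 CPM in the 3 livers, and at 4 h Gpnmb measured 98.7, 0.594 and 25.6 CPM. The 3 livers of a group could thus hold both the high and the low end of the lipid-associated genes. Over the 3 control males of a clock time, the gap between the highest and lowest mean log2 CPM of these 4 genes was 4.42 at 16 h, 3.77 at 4 h, 2.98 at 8 h, 2.97 at 0 h, 0.809 at 12 h and 0.57 at 20 h. The control livers were thus close to each other at 12 and 20 h and far apart at the other times.

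Over the deviations of the 72 livers from their group means, genes of a role moved together to different degrees, as a description of points that share libraries. The median Pearson r between members was 0.984 for MHC class II, 0.973 for C1q, 0.802 for macrophages in general, 0.783 for the lipid-associated genes, 0.708 for the monocyte and integrin genes, 0.644 for the Kupffer cell genes and 0.246 for Tnf, Il1b and Ccl2. Between the means of the roles, the lipid-associated genes correlated at 0.903 with the monocyte and integrin genes and at 0.826 with MHC class II, and at -0.07 with the Kupffer cell genes. The last value pooled the sets of sex and treatment. It was -0.614 in misaligned females and 0.444 in control females, and -0.279 in misaligned males and -0.146 in control males (18 livers each). With MHC class II it was 0.249 in misaligned females and 0.76 in control females, and 0.888 in misaligned males and 0.96 in control males. Both control female values include the liver that stood apart and were not computed without it. The sign of the Kupffer cell value in control females is thus not settled. The deviations of that liver were 1.448 for the Kupffer cell genes, 0.9492 for the lipid-associated genes and 2.199 for MHC class II. The pooled value of -0.07 was -0.136 without the point of that liver. It also averaged over unlike Kupffer cell genes. With the single lipid-associated genes, Cd5l correlated at 0.461 to 0.72 and Timd4 at -0.564 to -0.309. The other Kupffer cell genes lay between -0.236 and 0.29. The Kupffer cell genes correlated with MHC class II at 0.136, and at -0.03 without the point of the liver that stood apart. For this value and the -0.136, the other livers of its group kept deviations from a mean that included that liver. Its influence was thus only partly removed. Among other cell markers, the lipid-associated genes correlated in the same 72 deviations at 0.879 with stellate cell markers and -0.568 with hepatocyte markers. They correlated at 0.824 with cholangiocyte markers, a list whose main gene by level is Spp1, which macrophages also express. The Kupffer cell genes correlated at 0.566 with sinusoidal endothelial markers.

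**Figure D5:**
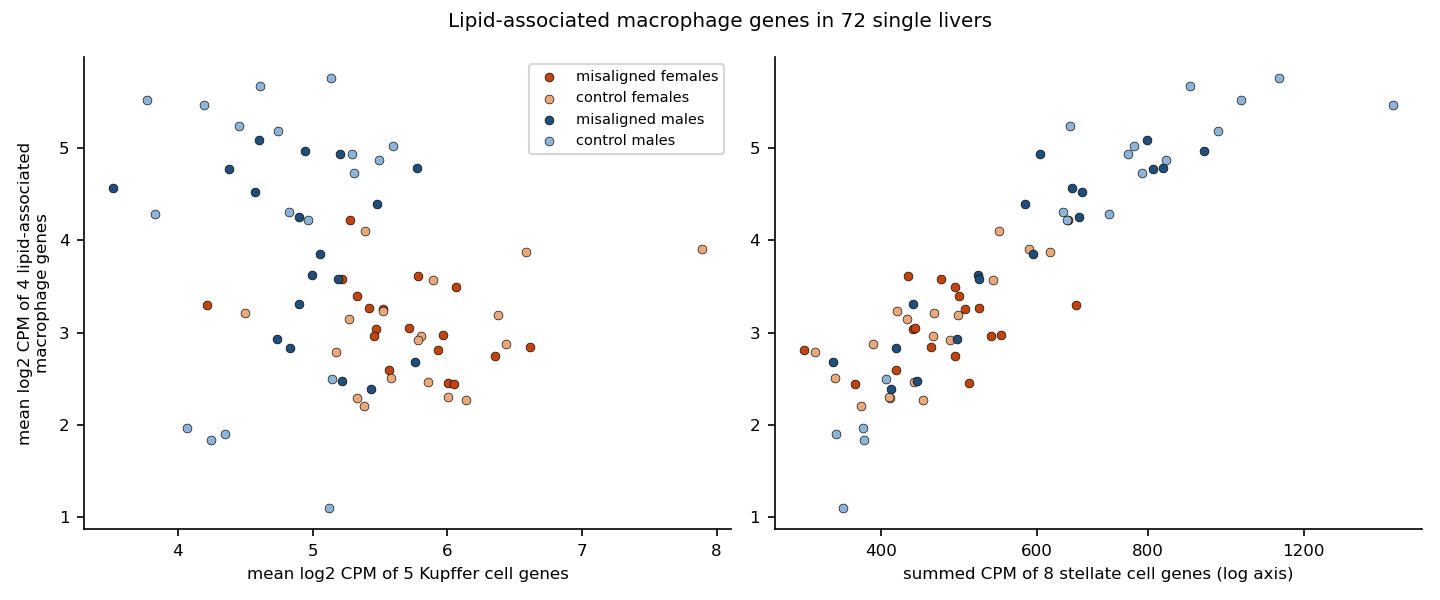
Mean log2 CPM of the 4 lipid-associated genes in each of 72 livers, against the mean log2 CPM of the 5 Kupffer cell genes (left) and the summed CPM of 8 stellate cell markers on a log axis (right), coloured by sex and treatment. The lipid-associated genes run along with the stellate cell markers. With the Kupffer cell genes, the r of deviations was -0.614 in misaligned females and 0.444 in control females. The control female value includes the liver that stood apart and was not computed without it, so its sign is not settled.

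Outside the members, the genes most like each role in the same deviations were named by the largest r over 72 livers. For the Kupffer cell genes these were Cd300e (0.782), Btbd11 (0.769), Wfdc17 (0.766), Siglece (0.756), Adgre4 (0.732) and Lilra5 (0.728). For MHC class II they were H2-DMb1 (0.955) and H2-DMa (0.946), which load peptide onto these molecules, then Irf8 (0.919), Cxcl16 (0.913), Myo1f (0.909) and Sirpa (0.907). For C1q they were Fermt3 (0.949), Cyba (0.938), Unc93b1 (0.93), Laptm5 (0.927), Pld4 (0.921) and Cd300c2 (0.918). Each r is a likeness between levels in the same livers.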

How the data were processed

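RNA of 72 whole livers was read as 150 bp pairs from stranded poly(A) libraries, per the labels' protocols. Reads were aligned with STAR 2.6.0c to GRCm38, per the submitters' processing notes. The authors deposited whole-number counts per gene, a minimum and a maximum per gene and library; the minimum counts were used and the maximum counts tried as an alternative. Deposited totals were 11551524 to 12529963 (median 12005221), so depth did not separate groups; TMM factors were 0.836 to 1.17.

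The counts were filtered with filterByExpr over the 24 groups and tested with edgeR 4.0.16 (R 4.3.3) by its quasi-likelihood test, 2-sided, with Benjamini-Hochberg adjustment over 15066 genes and a threshold of 0.05. Libraries carried 1 mean per sex, treatment and clock time (48 residual degrees of freedom), or a mean, cosine and sine of 24 h per sex and treatment (60). SEs are the estimate divided by the square root of the F statistic. Log2 CPM used a prior count of 2. limma 3.58.1 (voom) and DESeq2 1.42.0 were alternatives, with other scaling, no filter, a replicate block and livers left out; Python 3.11.15 with matplotlib 3.10.9 drew the figures. The steps were tested on simulated data. The female effect minus the male effect at single clock times, the older edgeR dispersion estimate and fits on 1 sex alone were added after the data were seen.

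All 37 members were named; in a comparison those past the threshold, or else the 4 with the smallest p, have full statistics, and of every other list at most the 3 with the smallest p. The members, lists and rules were chosen with earlier results of these data known. The labels call the 3 livers of a group biological replicates without saying more, so p-values measure the spread between these samples.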

Additional observations from a re-analysis of the deposited data

Results flagged for a closer look

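At 20 h the response of Cd9 to misalignment differed between females and males in a test that it passed narrowly. It measured 38.1, 30.0 and 41.6 CPM in misaligned females, against 21.3, 21.8 and 23.6 CPM in control females, and 14.2, 23.8 and 14.5 CPM in misaligned males, against 38.4, 59.7 and 33.9 CPM in control males. Each misaligned female lay above each control female, and each misaligned male lay below each control male. The female difference alone did not pass an adjusted p of 0.05, and the male difference did. The log2 difference, misaligned minus control, was 0.72 ± 0.39 in females and -1.33 ± 0.40 in males, and the female effect minus the male effect was 2.05 ± 0.56 (edgeR quasi-likelihood interaction test, adjusted p = 0.0493 over all genes). This test was added after the data were seen, and Cd9 was the 1 member that passed it at 20 h, where 1.16% of all genes passed. The call was lost without 10 of the 12 livers of that clock time, each left out in turn (differences 1.74 to 2.33, adjusted p 0.0375 to 0.176), without any filter on low counts (0.0949) and with limma-voom (0.0637). It was also lost with other scaling (RLE, 0.0505), with the older dispersion estimate (0.0545) and without each replicate number (0.102 to 0.32). The maximum counts kept it (0.0494).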

How the results depend on the processing

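Averaged over the clock times, misalignment called 0 members in either sex, and 0 for the difference between the sexes, under every alternative run. The 14 members called by sex in controls were 22 without clock time 16 h, 9 to 14 without each replicate number and 12 to 19 without each single library; the 10 called in misaligned livers were 6 to 11 and 9 to 11. For the male response by clock time the 1 call was 0 without a filter on low counts, 0 with libraries of one sex alone, 0 to 1 without each replicate number and 0 to 11 without each library. The 5 rhythms of control females were 3 without a filter, 1 with limma-voom, 0 to 6 without each replicate number and 1 to 8 without each library. One sex alone gave 1 rhythm in misaligned females and 1 change of rhythm in each sex. The test of 1 mean over 6 clock times gave 1 rhythm in control males, and single libraries left out gave 0 to 2. For the change of rhythm in males the ranges were 0 to 1 without each library and 0 to 2 without each replicate number. The 14 calls at single clock times were 6 without a filter, 4 with one sex alone, 0 to 5 without each replicate number and 0 to 16 without each library. The causes of these moves were not tested. Of 45 calls of a member in a comparison, 28 were lost without at least 1 library, and 0 changed direction. DESeq2 was run for the 5 comparisons averaged over clock times and called 14 members by sex in controls and 11 in misaligned livers. The median SD between livers was 0.684 to 0.690 under other settings.

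Same-numbered livers did not as a rule vary together (36 pairs of groups, r -0.469 to 0.452, median -0.0324). These values cannot exclude pairing or a batch shared by number, and the labels state neither. With the replicate block, 14 members were called by sex in controls, 12 by sex in misaligned livers, 1 for the male response by clock time, 14 at single clock times and 1 for the rhythm of control females, against 5 without the block. The interaction of Cd9 at 20 h had an adjusted p of 0.0577 with the block.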
